A study of Mus musculus with 6 samples.

Results

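The genes described here are 43 adhesion genes of the mouse, of 21887 protein-coding genes in the RefSeq table used: cadherins, protocadherins outside the clusters, Fat, Dachsous and Celsr genes, and the Cadm genes. They were taken as a list of names, without the clustered protocadherins and without Pcdh15, and all 43 matched the table. Methyl-CpG immunoprecipitation with MBD2-Fc, a methyl-binding domain fused to an antibody tail, had been applied to I/11 cells, an erythroblast line from p53-deficient mouse fetal liver of embryonic day 12.5. Every culture was expanded with erythropoietin, stem cell factor and dexamethasone, infected with a lentivirus that carried a hairpin, and selected with puromycin. The series has 6 libraries, 1 for each of shRNA 133 against Plcg1, shRNA 14 against Plcg1 and a scrambled shRNA at 0 h of differentiation (72 h after infection) and at 24 h in differentiation medium with 10 U/ml erythropoietin and holo-transferrin (96 h after infection). The scrambled libraries were not analysed here. The 4 deposited lists for the hairpins against Plcg1 hold 3900 regions for hairpin 133 and 3437 for hairpin 14 at 0 h, and 2960 and 2666 at 24 h.

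A peak below is a region that the authors listed for 1 library. The lists give positions only, so a peak carries no height, and the sources used here do not say whether it marks more or less methylation than the scrambled control had. Read depth is unknown. Each group is 1 library, so no difference between hairpins or times has a replicate check and none was tested. Intervals for shares are exact binomial 95% intervals (Clopper-Pearson) and cover counting error only. The lists hold no transcript levels, so neither the cell type nor the knockdown could be checked with them; Plcg1 itself had 0 peaks in its body or within 10 kb.

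Cadherins are calcium-dependent adhesion proteins whose extracellular repeats bind those of neighbouring cells, and the classical members hold the actin skeleton through catenins. Protocadherins share the repeats but not the catenin-binding tail, while Fat, Dachsous and Celsr proteins are giant relatives that act in planar cell polarity. Cadm proteins belong to the immunoglobulin superfamily and do not need calcium for adhesion. Promoter methylation of CDH1, CDH13 and CADM1 is well known from human carcinomas, where these genes are often silenced.

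Of the 43 genes, 21 had a peak in the gene body or within 10 kb of it in at least 1 list, and 22 had none. Over all protein-coding genes the share was 26.0%, against 48.8% here (33.3 to 64.5%). With hairpin 133 at 0 h, 10 of the 43 had a peak, where 12.7% of all genes did. With hairpin 14 at 0 h there were 11, against 11.0% of all genes. At 24 h there were 14 with hairpin 133 (10.5% of all genes) and 9 with hairpin 14 (9.72% of all genes). These shares were 23.3%, 25.6%, 32.6% and 20.9% of the 43 genes, and their intervals overlap. Of the 43, 7 genes had a peak in 1 list (16.3%), 8 in 2 lists (18.6%) and 3 in 3 lists (6.98%). Over all genes these shares were 14.9%, 6.35% and 2.72%. Another 3, Cadm1, Cdh13 and Cdh22, had a peak in all 4 lists, where 2.07% of all genes did. The shares of all genes in this paragraph take no account of gene length, which is treated below. The lists held 67 peaks at these genes in total, 60 in gene bodies and 7 beside them, and 4 of the 67 also lay in another gene (Gm52541 in Cdh4, Gm35018 in Cdh6, Gm9247 in Pcdh9 and Trmu beside Celsr1).

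**Figure D1:**
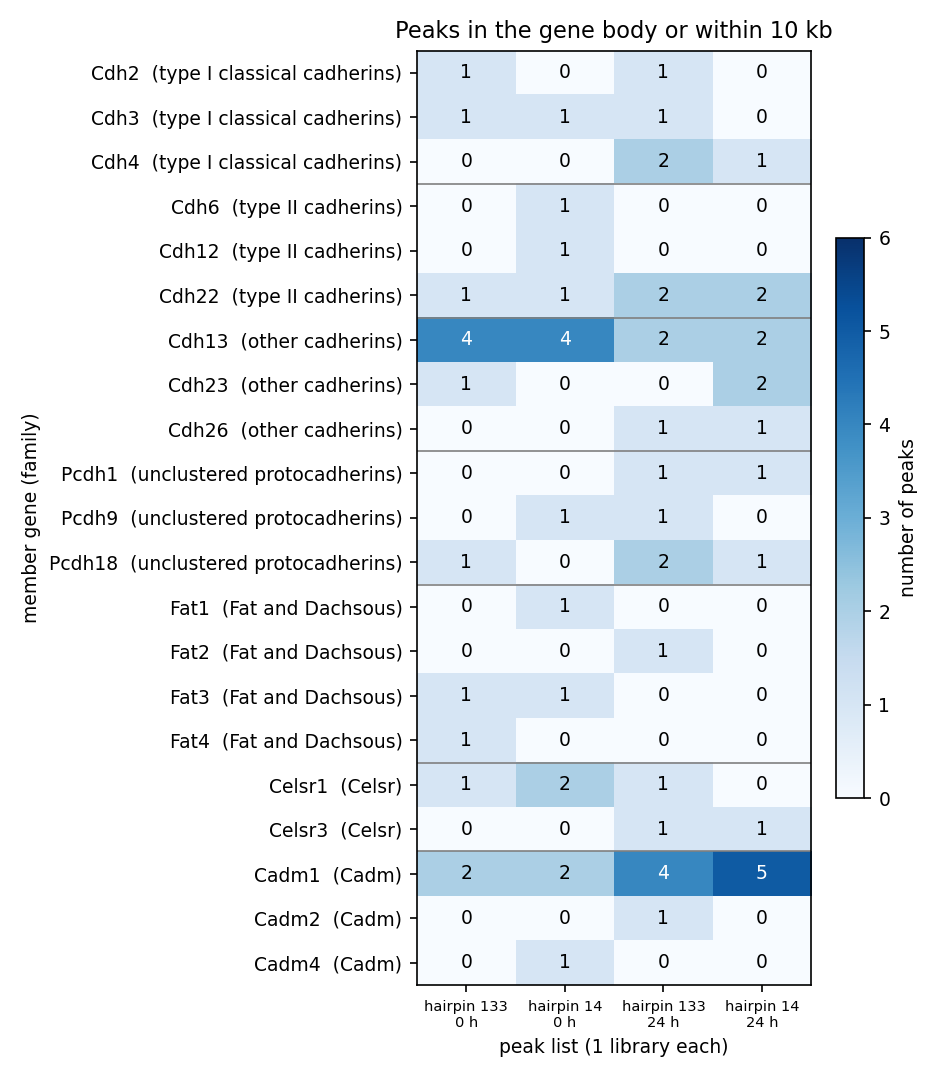
Number of peaks in the body or within 10 kb of each of the 21 genes with any peak (rows, grouped by family), in each of the 4 lists (columns, 1 library each); the shade and the printed digit give the number. Cadm1 holds 2, 2, 4 and 5 peaks, Cdh13 holds 4, 4, 2 and 2, and most other genes hold 0 or 1 in a list.

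Gene starts were looked at first, since the assay selects methylated DNA rich in CpG. A peak within 1 kb of an annotated start was found for Cdh22, Pcdh18, Fat4 and Cadm4, 4 of the 29 members with an entry in the RefSeq promoter table (assembly GRCm38.p6, the same coordinates as mm10), while 5.12% of all genes with an entry had such a peak. For the other 14 members no strand was at hand and either gene end counted; of these Cadm1 and Celsr1 had a peak there. By this joint rule 6 of 43 members (13.95%, 5.30 to 27.9%) had a peak at a start or end, where 5.45% of all protein-coding genes did and the shares of the length classes described below would give 3.37 members (7.83%). The 250 bases before the start are printed for the 4 genes with an entry, 5′ to 3′ on the gene's strand with each CpG in capitals. They are for the most part not the sequence under the peaks. Only 1 peak at Pcdh18 (138 bases) and 1 at Cadm4 (6 bases) reached into a printed stretch. All peaks at Cdh22 and Fat4 lay outside theirs. The CpG dinucleotide reads the same on both strands, and 94.8% of all 17492 promoters of 300 bases (250 before and 50 after the start) hold at least 1.
Pcdh18 (chr3:49757317-49757566, minus strand): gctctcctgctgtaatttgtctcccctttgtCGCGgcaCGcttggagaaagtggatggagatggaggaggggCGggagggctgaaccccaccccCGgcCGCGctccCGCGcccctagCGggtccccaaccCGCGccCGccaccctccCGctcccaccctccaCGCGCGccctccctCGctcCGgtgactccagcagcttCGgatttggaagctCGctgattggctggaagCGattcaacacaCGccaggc
Cdh22 (chr2:165234738-165234987, minus strand): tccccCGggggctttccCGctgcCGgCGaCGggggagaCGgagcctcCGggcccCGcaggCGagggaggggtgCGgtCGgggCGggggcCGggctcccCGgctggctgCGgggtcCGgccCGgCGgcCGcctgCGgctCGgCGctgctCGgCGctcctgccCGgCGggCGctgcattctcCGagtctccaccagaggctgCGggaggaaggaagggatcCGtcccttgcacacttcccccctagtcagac
Fat4 (chr3:38886690-38886939, plus strand): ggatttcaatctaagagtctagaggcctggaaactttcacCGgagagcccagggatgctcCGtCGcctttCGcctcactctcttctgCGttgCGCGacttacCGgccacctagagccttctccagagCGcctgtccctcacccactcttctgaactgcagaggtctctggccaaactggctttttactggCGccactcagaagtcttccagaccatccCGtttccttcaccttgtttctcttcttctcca
Cadm4 (chr7:24481773-24482022, plus strand): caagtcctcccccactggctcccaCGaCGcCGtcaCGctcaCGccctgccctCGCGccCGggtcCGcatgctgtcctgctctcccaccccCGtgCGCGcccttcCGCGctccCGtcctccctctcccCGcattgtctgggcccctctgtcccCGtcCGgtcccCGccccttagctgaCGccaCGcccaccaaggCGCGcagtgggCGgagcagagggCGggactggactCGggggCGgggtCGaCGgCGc

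At Pcdh18, a protocadherin of the delta group, a peak covered the start. The peak of hairpin 133 at 24 h ran from -138 to 12 bp of the start and took in bases 113 to 250 of the printed stretch, with 14 of its 23 CpGs. The same list had a peak from 81 to 231 bp inside the gene. The list of hairpin 14 at 24 h had a peak farther in, at 968 to 1118 bp, and none over the promoter. At 0 h the only peak at Pcdh18 had its centre 13344 bp from the start, with hairpin 133. The gene thus had 1, 0, 2 and 1 peaks (hairpins 133 and 14 at 0 h, then at 24 h, the order used throughout), 4 distinct regions in 14.1 kb, and no region was shared by 2 lists.

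Cdh22, a type II cadherin of brain and pituitary, held the only region of the 43 genes found in all 4 lists, at chromosome 2, 165233415 to 165233587, where 1.28% of all genes held such a region. The shares of the length classes described below would give 0.734 members with one. Both hairpins had the identical peak at 0 h, from 1172 to 1322 bp inside the start, and the identical peak at 24 h, 1150 to 1300 bp inside it. The pair of 0 h and the pair of 24 h overlap without being the same. A further peak of hairpin 14 at 24 h lay closer, 345 to 495 bp inside the start, and 1 of hairpin 133 at 24 h had its centre 77402 bp inside. None of these peaks reached the printed stretch, which holds 30 CpGs.

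Fat4, a giant cadherin that binds Dachsous, had 1 peak in all lists together, with hairpin 133 at 0 h. It lay 225 to 375 bp after the start of the promoter table, 38886940. That start and the printed stretch before it lie inside the gene body, which begins at 38884667. From that end the peak's centre was 2573 bp away. The printed stretch of Fat4 holds 11 CpGs, the fewest of the 4 printed. Cadm4, a Cadm gene of myelinated nerve, had 1 peak too, with hairpin 14 at 0 h, from -395 to -245 bp, which met only bases 1 to 6 of the printed stretch and none of its 30 CpGs. Counted over the whole 300 bases, Pcdh18 has 23 CpGs, Cdh22 38, Fat4 13 and Cadm4 40. As many or more are found in 28.9%, 6.11%, 51.4% and 4.85% of all promoters. The median over the 29 members with an entry was 15 CpGs, against 13 over all protein-coding promoters, and the 25 without a peak at the start had a median of 14. Members rich in CpG were among both: Celsr2 with 40, Fat3 with 35 and Cdh24 with 30 had no peak within 1 kb of the start in any list.

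Cadm1 had the most peaks of the 43 genes, 13 over the 4 lists. It is also known as SynCAM1 or TSLC1, an adhesion protein of synapses, epithelia and mast cells. Around the end of the gene with the lower coordinate (chromosome 9, 47530170), 9 peaks of the 4 lists lay within 2080 bp. At 24 h both hairpins had the same 3 peaks to the base, at 47529896 to 47530046, 47531054 to 47531204 and 47531744 to 47531894. At 0 h both had the identical peak at 47530869 to 47531019, which ends 34 bp before the second of the 24 h peaks, and hairpin 14 had another at 47529815 to 47529965 that overlaps the first. The count at this end was therefore 1, 2, 3 and 3, higher at 24 h with each hairpin. Hairpin 133 had no peak at the outermost of these positions at 0 h, so no region there was in all 4 lists. Identical positions were usual in these lists. Of all regions shared by the hairpins, 79.4% at 0 h and 92.8% at 24 h had the same start and end.

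**Figure D2:**
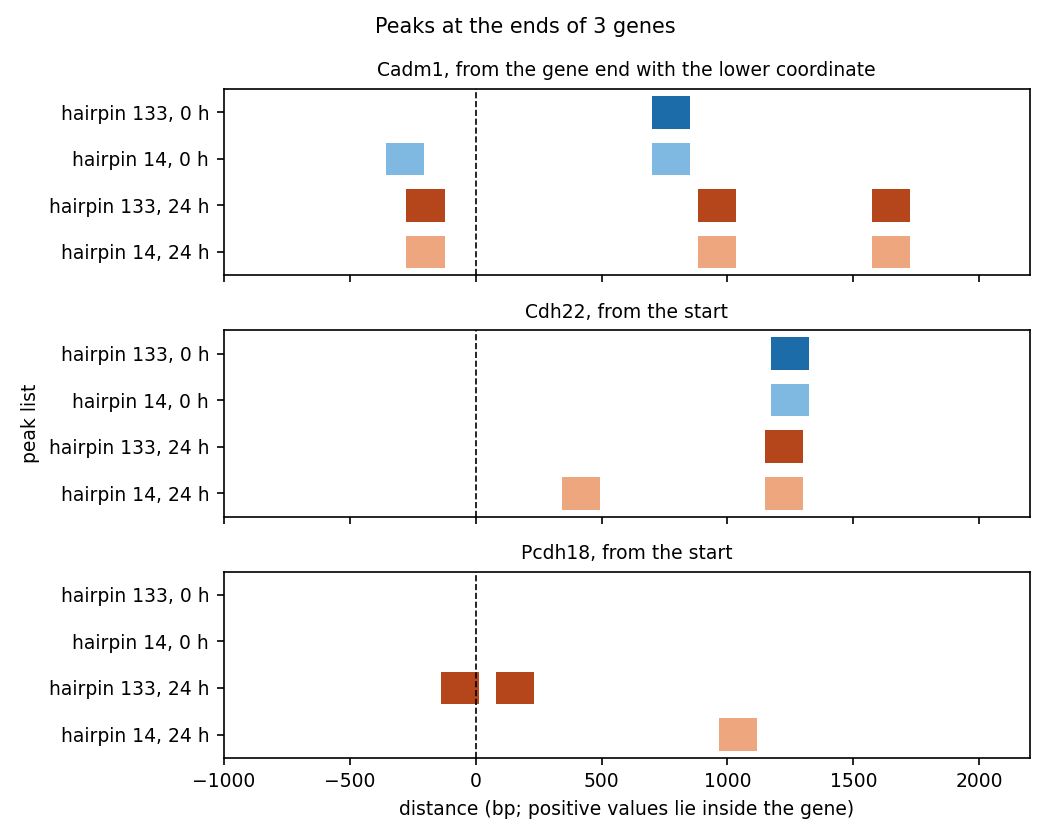
Positions of peaks (bars, drawn to scale) in the 4 lists around the lower-coordinate end of Cadm1 and the annotated starts of Cdh22 and Pcdh18; the x axis is distance in bp, positive inside the gene, and the dashed line marks the end or start. Both hairpins share bars at each time in Cadm1 and Cdh22, while at Pcdh18 no bar is shared and the 0 h lists are empty in this range.

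Gene length went together with the number of genes that had a peak. The members are long genes, with a median body of 119 kb (4.54 to 1185 kb) against 17.2 kb over all protein-coding genes. Those with a peak had a median of 136 kb and those without 63.3 kb, where the same medians over all genes were 36.3 and 13.5 kb. Across the 43 genes the rank correlation (Spearman) of length with the peaks of the 4 lists was 0.29, and across all 21887 genes 0.31, as a description, since genes are not independent and share the 4 libraries.

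Within classes of length the counts were small. Of those under 50 kb, 5 of 14 had a peak in any list, or 35.7% (12.8 to 64.9%), against 19.7% of all genes of that class. Of those from 50 to 200 kb, 7 of 16 had a peak, 43.8% (19.8 to 70.1%), against 43.2%. Above 200 kb, 9 of 13 had a peak, 69.2% (38.6 to 90.9%), against 64.2%. The interval of each class holds the share of all genes. If each member had the share of its length class, 18.0 of the 43 would have a peak in any list, where 21 did. The same count per list was 10.0, 8.56, 7.78 and 7.22, where 10, 11, 14 and 9 were found, so the list of hairpin 133 at 24 h stood farthest above it.

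**Figure D3:**
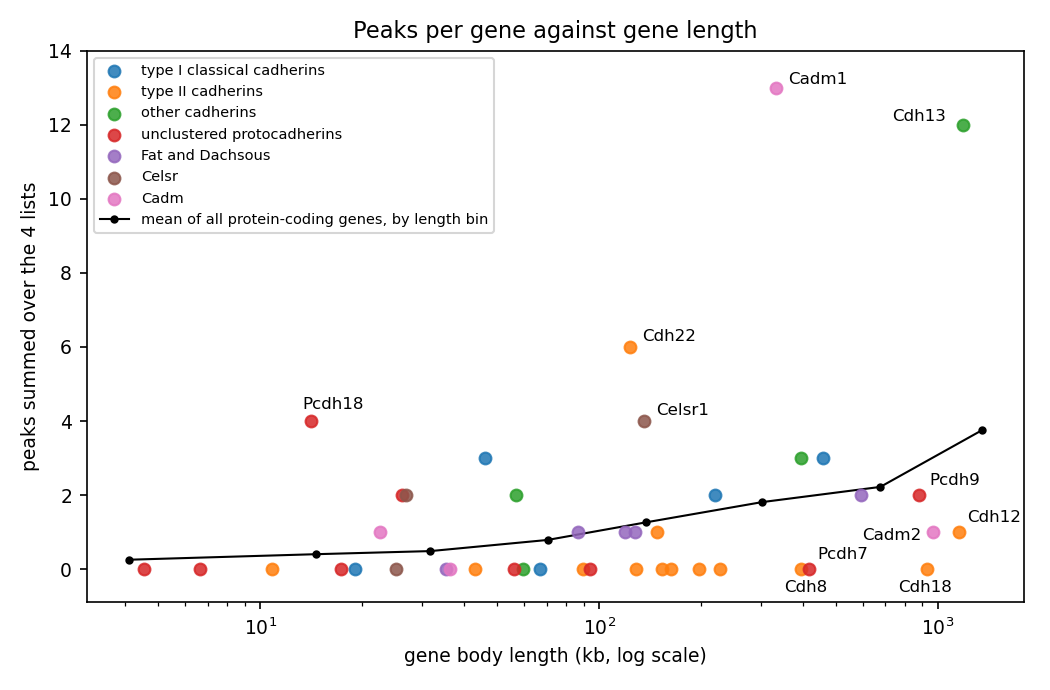
Peaks summed over the 4 lists (y axis) against gene body length in kb (x axis, log scale) for the 43 genes, coloured by family; the black line joins the mean of all protein-coding genes in bins of length. Cadm1 (13 peaks) and Cdh13 (12) lie far above the line, and the long genes Cdh12, Cdh18 and Cadm2 lie below it with 1, 0 and 1.

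**Figure D4:**
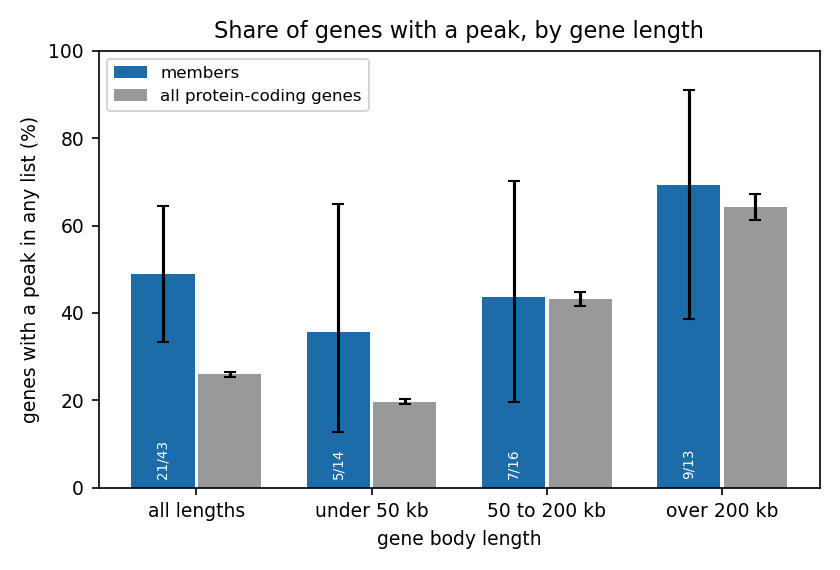
Share of genes with a peak in any list (y axis, percent) for the members (blue, counts printed) and all protein-coding genes (grey), over all lengths and in 3 classes of gene body length; error bars are exact binomial 95% intervals. The members' bar stands at 48.8% against 26.0% over all lengths, and at 43.8% against 43.2% from 50 to 200 kb.

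Peak density was set against all genes and against genes of like length. The members' windows cover 11140 kb, and the 4 lists together placed 0.601 peaks per 100 kb there, against 0.731 over the windows of all protein-coding genes and 0.444 over those of all genes above 200 kb. By list the density was 0.126 (0.0687 to 0.211, exact Poisson interval, counting error only), 0.144 (0.0821 to 0.233), 0.189 (0.117 to 0.288) and 0.144 (0.0821 to 0.233) per 100 kb. All protein-coding genes had 0.216, 0.187, 0.170 and 0.159, so the members were below them in both 0 h lists. At 24 h the order turned with the setting. With hairpin 133 the members were above all genes, but below them without Cadm1 (0.158 against 0.170). With hairpin 14 they were below, but above with windows of 50 kb (0.145 against 0.140). Of these values, only that of hairpin 133 at 0 h had an interval that leaves out the density of all genes. At the densities of their length classes the members would have 19, 15.8, 13.4 and 12.3 peaks, 60.5 in all. Found were 14, 16, 21 and 16, 67 in all. Inside the class over 200 kb, peaks rose less than length. All genes from 200 to 500 kb averaged 1.81 peaks, those from 500 to 1000 kb 2.22 and longer ones 3.75. Their mean bodies were 303, 676 and 1345 kb. The class density thus runs high for the longest members, and values at a finer division were not computed.

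Among type I classical cadherins, the catenin-binding proteins of adherens junctions, 3 of 5 genes had a peak, where 26.0% of all genes did and the length classes would give 2.11. Their 8 peaks compare with 6.65 at the density of all genes and 4.91 at those of the length classes. Cdh3 (P-cadherin, 46.1 kb) had 1, 1, 1 and 0 peaks. The 0 h peak was identical with both hairpins and lay outside the body, 4467 bp beyond its upper end at chromosome 8, 106561378 to 106561528, in the stretch before Cdh1. Cdh4 (R-cadherin of the retina, 457 kb) had 0, 0, 2 and 1 peaks, all at different positions in its body. Cdh2 (N-cadherin of nerve and heart, 220 kb) had 1, 0, 1 and 0, also at different positions. Cdh1 (E-cadherin of epithelia) and Cdh15 (M-cadherin of muscle) had none; the nearest peak to Cdh1 was 15.2 kb away, with hairpin 133 at 0 h.

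Type II cadherins, a related group expressed in brain, vessels and mesenchyme, had few peaks for their length. Of the 13 genes, Cdh22, Cdh6 and Cdh12 had a peak, where 26.0% of all genes did and the length classes would give 5.99. Their windows of 4015 kb held 8 peaks, where the densities of the length classes would give 22.5 and the density of all genes 29.4. The 22.5 runs high for Cdh12 and Cdh18, since 1 density serves all genes over 200 kb. All genes above 1000 kb averaged 3.75 peaks, where Cdh12 had 1. Those from 500 to 1000 kb averaged 2.22, where Cdh18 had 0. Leaving out Cdh22, 12 genes and 3872 kb held 2 peaks, both with hairpin 14 at 0 h: 1 in Cdh6 (a cadherin of the kidney) and 1 in Cdh12, which spans 1150 kb. The other 10 genes had none in any list: Cdh5 (VE-cadherin of endothelium), Cdh7, Cdh8, Cdh9, Cdh10, Cdh11 (a cadherin of osteoblasts), Cdh18, Cdh19, Cdh20 and Cdh24. The longest without a peak was Cdh18 with 929 kb, and its nearest peak lay 956 kb away. A list with 0 peaks allows a share of up to 0.0769%, 0.0873%, 0.101% and 0.113% of its peaks (3 counts of the list).

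Among the cadherins outside these types, 3 of 4 genes had a peak, where 26.0% of all genes did and the length classes would give 2.15. Their 17 peaks compare with 13 at the density of all genes and 8.45 at those of the length classes. Cdh13 is T-cadherin, which is held by a lipid anchor and has no catenin-binding tail. It had 4, 4, 2 and 2 peaks in 1185 kb, in 8 distinct regions. At 0 h the hairpins shared 3 of them, at chromosome 8, 118497780 to 118497934, 118790840 to 118790990 and 119300064 to 119300215, the first offset by 4 bp, the second identical and the third offset by 1 bp. At 24 h they shared none. The region 119302368 to 119302550 was listed with hairpin 133 at 0 h and hairpin 14 at 24 h. All peaks lay over 22 kb inside both ends. Cdh23 (a part of the tip link of hair cells, 394 kb) had 1, 0, 0 and 2 peaks at separate positions. Cdh26 (56.9 kb) had 0, 0, 1 and 1, the same peak with both hairpins at chromosome 2, 178469994 to 178470144. Cdh17 (a cadherin of the intestine) had none.

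Unclustered protocadherins had peaks in 3 of 9 genes, where 26.0% of all genes did, with 1, 1, 4 and 2 peaks in the lists. The length classes would give 3.14 genes with a peak and 9.11 peaks, and the density of all genes 12.4 peaks, where 8 were found. Pcdh15 was left out of this family by the choice of genes, so its peaks are not in these counts. Pcdh1, known from airway epithelium, had the same peak with both hairpins at 24 h, at chromosome 18, 38209978 to 38210128, with its centre 1995 bp inside the upper end of its 26.1 kb, and none at 0 h. Pcdh9 had 0, 1, 1 and 0 in 879 kb, at separate positions, and Pcdh18 is described above. Pcdh7, Pcdh8, Pcdh10, Pcdh12, Pcdh17 and Pcdh20 had none. Pcdh7, the longest of these with 417 kb, had its nearest peak 68.3 kb away.

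Planar polarity cadherins had peaks in 6 of 8 genes, where 26.0% of all genes did and the length classes would give 2.96. They had 11 peaks, where the length classes would give 8.60. The 2 families differed. Fat and Dachsous had peaks in 4 of 5 genes (2.14 at length classes) but 5 peaks, below the 6.45 at length classes. Celsr had peaks in 2 of 3 genes (0.827) and 6 peaks, above 2.16. Fat1, Fat2, Fat3 and Fat4 together had 2, 2, 1 and 0 peaks, none shared between lists: Fat1 1 with hairpin 14 and Fat4 1 with hairpin 133 at 0 h, Fat3 1 with each hairpin at 0 h, and Fat2 1 with hairpin 133 at 24 h. Dchs1, the Dachsous partner of Fat4, had none. Celsr genes encode seven-pass cadherins of the flamingo type. Celsr1 had 1, 2, 1 and 0 peaks in 4 regions, of which that of hairpin 133 at 0 h had its centre 426 bp inside the lower-coordinate end and that at 24 h lay outside the body, in Trmu. Celsr3 had 0, 0, 1 and 1, the first of them with its centre 1947 bp inside its start, and Celsr2 had none. Celsr2 and Celsr3 are under 50 kb and Celsr1 spans 135 kb, and the 6 peaks came to 2.42 per 100 kb, against 0.970 over all genes under 50 kb and 0.811 over those from 50 to 200 kb.

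Cadm genes had 2, 3, 5 and 5 peaks, 13 of 15 in Cadm1. A peak was found at 3 of the 4 genes, where 26.0% of all genes had one and the length classes would give 1.68. The 15 peaks compare with 10.5 at the density of all genes and 6.9 at those of the length classes. Besides the group at its end, Cadm1 had a region farther inside, chromosome 9, 47673472 to 47673627, listed with hairpin 133 at 0 h and at 24 h with an offset of 5 bp, and 2 single peaks of hairpin 14 at 24 h. Its 13 peaks in 332 kb came to 3.69 per 100 kb. Cadm2, which spans 966 kb, had 1 peak, with hairpin 133 at 24 h, or 0.102 per 100 kb. Cadm4 had the single peak described above, and Cadm3 had none.

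**Figure D5:**
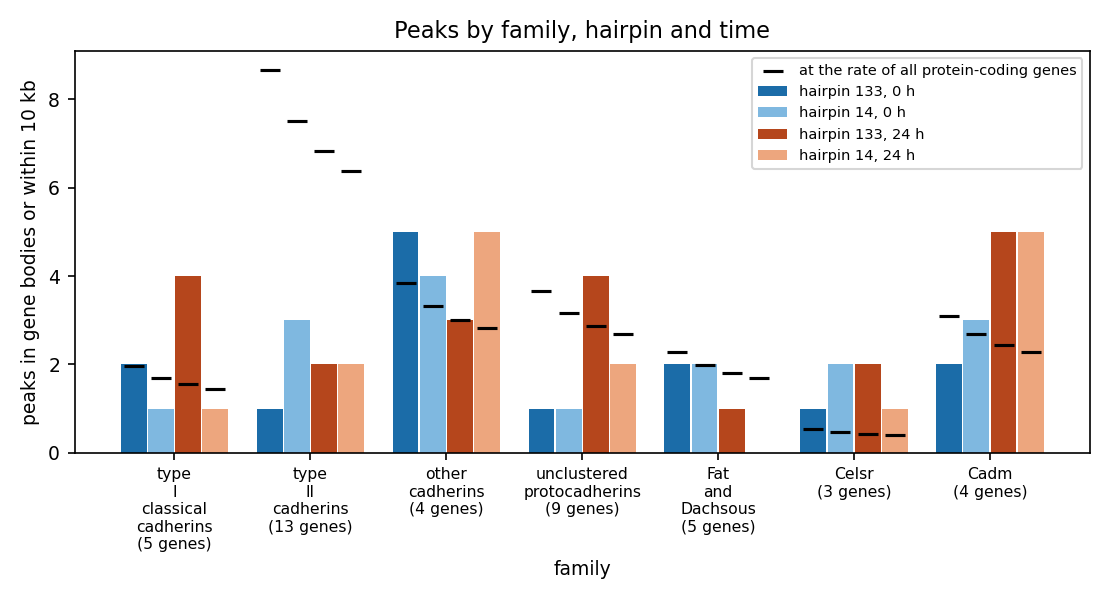
Peaks in the windows of each family (bars) in the 4 lists, coloured by hairpin and time, with 1 library per bar and no error to show; black dashes give the number at the density of all protein-coding genes in that list, whatever the length of the genes. Bars of type II cadherins (1, 3, 2 and 2) end below all their dashes, and Celsr bars (1, 2, 2 and 1) end above all theirs.

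The hairpins shared a region in 4 of the 43 genes at 0 h, Cadm1, Cdh13, Cdh22 and Cdh3, where 4.61% of all genes held a shared region and the length classes would give 3.60 members. At 24 h they also shared a region in 4 genes, Cadm1, Cdh22, Cdh26 and Pcdh1, where 3.38% of all genes did and the length classes would give 2.14. Counted by region, 6 of 14 regions of hairpin 133 and 6 of 16 of hairpin 14 were shared at 0 h (42.9%, 17.7 to 71.1%, and 37.5%, 15.2 to 64.6%), and 6 of 21 and 6 of 16 at 24 h (28.6%, 11.3 to 52.2%, and 37.5%, 15.2 to 64.6%). Start and end were identical in 4 of the 6 shared regions at 0 h and in 6 of the 6 at 24 h. Over all genes and intergenic DNA, 79.4% and 92.8% of shared regions were identical. Of the 51 distinct regions at these genes, 38 (74.5%, 60.4 to 85.7%) came from 1 list, as did 79.2% of all regions.

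The 24 h lists were shorter than the 0 h lists. The members held 14 of 3900 and 16 of 3437 peaks at 0 h, 0.359% (0.196 to 0.602%) and 0.466% (0.266 to 0.755%), and 21 of 2960 and 16 of 2666 at 24 h, 0.710% (0.440 to 1.08%) and 0.600% (0.343 to 0.973%). The intervals of the times overlap with both hairpins, and with hairpin 14 the count of peaks was the same at both times. The share of listed peaks at all protein-coding genes was also higher at 24 h, 73.9% against 71.3% with hairpin 133 and 76.7% against 70.1% with hairpin 14. Cadm1 and Cdh13 gave 25 of the 67 peaks. Leaving out Cadm1, the counts were 12, 14, 17 and 11, so that with hairpin 14 the number went from equal to lower at 24 h. Cdh13 went the other way, from 4 to 2 peaks with each hairpin, while Cadm1 went from 2 to 4 and from 2 to 5.

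A peak at both times was found in 7 genes with hairpin 133 (Cadm1, Cdh13, Cdh2, Cdh22, Cdh3, Celsr1 and Pcdh18), where 4.18% of all genes had one at both times, and in 3 with hairpin 14 (Cadm1, Cdh13 and Cdh22), where 4.03% did. In most of these the positions differed: a region overlapping between the times of the same hairpin was found only in Cdh22 and Cadm1. At 0 h only, with either hairpin, 6 genes had a peak (Cadm4, Cdh12, Cdh6, Fat1, Fat3 and Fat4), where 10.3% of all genes did. At 24 h only, 6 others had one (Cadm2, Cdh26, Cdh4, Celsr3, Fat2 and Pcdh1), where 8.14% did. Cdh26 and Pcdh1 were the genes of the second group with the same region in both hairpins, and the first group held no such gene. The shares of all genes given here take no account of gene length, and these counts were not set against length classes.

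Partners of these proteins were read in the same way from a list of 32 genes. Among others it holds catenins and plakophilins, nectins, the Magi and Tjp scaffolds, polarity genes and partners of Cadm. The 32 genes have a median length of 108 kb. Peaks were found at 11, 9, 7 and 11 of them, where their length classes would give 7.69, 6.58, 5.97 and 5.55. In any list 19 had a peak (59.4%, 40.6 to 76.3%), where 26.0% of all genes did and the length classes would give 13.8. Their 51 peaks came to 0.541 per 100 kb, beside 0.601 at the adhesion genes, and their length classes would give 50.1 peaks. Ctnnb1 (beta-catenin), Ctnna1 and Ctnna2 (alpha-catenins) and Ctnnd1 (p120) had none. Jup (plakoglobin, 29.0 kb) had 0, 2, 2 and 1 peaks with centres between 124 and 780 bp inside its start, in 2 regions, of which 1 was in 3 lists. Magi1, a scaffold of junctions, had 3, 2, 2 and 1. It was the only partner of the 32 with a peak in all 4 lists, where 2.07% of all genes had one in each.

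Others with peaks in 3 lists were Prickle2 (2, 0, 1 and 2), a planar polarity gene, Magi2 (1, 2, 0 and 2) and Nectin4 (1, 1, 0 and 2), an adhesion gene of the immunoglobulin type. Ctnnd2 (2, 1, 0 and 0), Tjp1 (1, 2, 0 and 0) and Ctnna3 (1, 0, 0 and 1) had peaks in 2 lists, as did 5 further partners (Epb41l1, Epb41l2, Nectin1, Nectin2 and Pkp4). Regions shared by the hairpins were found in 2 of the 32 partners at 0 h, Magi1 and Nectin4, where 4.61% of all genes held one. At 24 h they were found in 2, Jup and Prickle2, where 3.38% of all genes held one. A region of all 4 lists was held by no partner, by 1 of the 43 adhesion genes (Cdh22) and by 1.28% of all genes.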

How the data were processed

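The values used are the coordinates of regions in the authors' deposited peak lists, 1 list for each of 4 libraries, in base pairs with no score, count or header; they were read as BED positions and are printed counting from 1. BWA, Picard, SAMtools, HOMER and build mm10 are named, per the submitters' processing notes, without versions or roles; the thresholds and the control are not given there. Of 12963 regions, 12962 had the same width. Lists of the 2 scrambled libraries were not used here.

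Genes, names and coordinates came from the RefSeq table of GRCm38.p6 (21887 protein-coding genes outside the mitochondrion), and starts, strands and sequences from the RefSeq promoter table of the same build, with 1 or more starts a gene. Exons, introns and untranslated parts were not analysed. Values at length classes weight the share or density of all genes under 50 kb, from 50 to 200 kb and over 200 kb by the genes of a set. The class over 200 kb has no upper limit, and its density runs high for its longest genes. A peak counted for a gene when at least 1 bp lay in its body or within 10 kb. Peaks overlapping by at least 1 bp were linked into regions. Windows that overlap were merged before densities were computed. Counting was tested on made-up peaks with known answers. Python 3.11.15 and scipy 1.17.1 were used.

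The members and the partner list were chosen with earlier results of these data known. Genes described in full had a region in 2 or more lists, a peak within 1 kb of a start or end, or were among the 10 with the most peaks; the others are given by count and name. Partners were named by the number of lists, up to 8 genes; the catenins without peaks and 5 further partners with peaks in 2 lists were added after their values were seen. No test between conditions was made, as each group is 1 library.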

Additional observations from a re-analysis of the deposited data

Results flagged for a closer look

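Some counts changed in opposite directions from 0 h to 24 h with the 2 hairpins. Each rests on 1 library per hairpin and time, and the differences were not tested. The number of genes with a peak changed by 4 with hairpin 133 and by -2 with hairpin 14. Peaks at type II cadherins changed by 1 and -1, peaks at Cdh13, Cdh17, Cdh23 and Cdh26 together by -2 and 1, and peaks at Celsr genes by 1 and -1.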

How the results depend on the processing

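Over 117 recomputed values, 113 stayed within 1.5 times the main count or, for densities, within the main interval: with the gene body alone, with 50 kb windows, with the peak's centre in place of any overlap, with 75 bp as the overlap that counts as shared, with 500 bp or 2 kb around the start, and without Cadm1 or Cdh13, the last 2 chosen after seeing the data. The other 4 came from leaving out peaks with identical start and end in both lists of a time, which takes out shared regions by its construction. Genes with a region shared by the hairpins then numbered 1 at 0 h and 0 at 24 h, genes with a region in all 4 lists 0, and peaks of hairpin 14 at 24 h 10. Leaving out Cadm1 and leaving out Cdh13 gave 19 of the recomputed values each. Either setting takes away 1 gene, so a count of genes could fall by at most 1. These 2 settings could thus hardly move such counts and say little about them. With 50 kb windows 14, 14, 15 and 12 members had a peak, against 26.1%, 22.7%, 21.5% and 19.6% of all genes. A stricter subset by score was not run, since the lists hold no score. Read depth is unknown, and a gene without a peak is not shown to lack methylation. An analysis with the hairpins as 2 pairs over time was not run.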
